A study of Rattus norvegicus with 12 samples.

Results

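The CREB family, its CRTC coactivators and the MEF2 factors are the transcription regulators through which calcium entry and cAMP reach many genes of nerve cells. The set followed here held 10 rat genes, listed by name: Crem, Creb1, Atf1, Atf2, Crtc1, Crtc2, Crtc3, Mef2a, Mef2c and Mef2d. Members were found by matching the transcript named for each array probe to the RefSeq symbol, and 8 of the 10 had a matched probe. Crtc3 and Mef2c had none, and their levels were not analysed here. The 8 genes were read by 14 of the 30367 non-control probes, and they stood among 21250 genes or unnamed targets that were tested together. Where several probes matched a gene, the probe with the highest mean signal gave the main value.

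The RNA came from primary hippocampal cultures of Wistar rats, made at embryonic day 18 and kept for 14 to 15 days in vitro. Blocked cultures received 50 µM GYKI-52466, an antagonist of AMPA receptors, together with 10 µM MK-801, an antagonist of NMDA receptors. They were collected after 9 h or 26 h, each time with control cultures that received neither drug. The 4 groups were blocked 9 h, control 9 h, blocked 26 h and control 26 h, with 3 arrays each from independent cultures. All 4 groups had glutamate in their medium during the first week, and the cultures are mixed: neurons sit beside glia. Each value is log2 of the background-subtracted spot signal minus the 75th percentile of its array, called the log2 level here. A level of 0 is the signal of the 75th percentile probe, and levels of different probes are not compared.

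CREB1, ATF1 and CREM are basic leucine zipper proteins that bind the cAMP response element (CRE), and kinases such as PKA and CaMKIV switch them on by phosphorylation. CRTC proteins wait in the cytoplasm in a phosphorylated form, are released by the calcium-dependent phosphatase calcineurin, and join CREB in the nucleus, where salt-inducible kinases oppose them. MEF2 proteins bind an A/T-rich element, take part in activity-dependent synapse loss and are held back by class IIa histone deacetylases. Most of this control acts on protein that is already made. Crem is an exception, since an internal promoter with CREs drives a short repressor form called ICER. The arrays measured transcripts and not phosphorylation, location or protein.

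The 12 arrays lay on 6 slides, and the 2 scan days cut across the groups. Control 9 h and blocked 26 h arrays were scanned on day 1, and blocked 9 h and control 26 h arrays on day 2. The blockade effect averaged over both times is therefore balanced over days and slides, whereas the effect at 1 time sets arrays of different days against each other. Per array, 77.6% to 86.8% of 42877 spots were well above background. Neuron markers (10 of 10) and astrocyte markers (8 of 8) were well above background on every array, as were 6 of 8 microglia markers. The mean log2 level of the neuron list was 0.41 to 0.60 in blocked 9 h cultures against -0.07 to 0.11 in control 9 h cultures. At 26 h it was 0.02 to 0.17 in blocked cultures against 0.14 to 0.49 in control cultures. Replicate 1 was the lowest in vascular and fibroblast, astrocyte and oligodendrocyte markers. The mean log2 level of the vascular and fibroblast list ran from -3.30 to -2.71 on the 4 arrays of replicate 1, from -2.45 to -2.21 in replicate 2 and from -2.17 to -2.02 in replicate 3. The astrocyte list ran from 2.03 to 2.22 in replicate 1, from 2.24 to 2.52 in replicate 2 and from 2.40 to 2.75 in replicate 3. In bulk RNA of mixed cultures, fewer cells of a type and less RNA per cell cannot be told apart.

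Crem, which encodes the cAMP-responsive modulator and its repressor forms, was lower in blocked cultures at both times. Its log2 level was 0.80, 0.43 and 0.61 in blocked 9 h cultures and 1.69, 1.27 and 1.35 in control 9 h cultures. After 26 h it was -0.72, -0.81 and -0.97 in blocked cultures and 0.22, 0.23 and -0.15 in control cultures. Each blocked array lay below each control array of its time. Blocked below control without overlap at both times held for 1.51% of all genes.

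Averaged over both times, Crem fell by 0.88 ± 0.11 on the log2 scale (SE, 3 arrays per group), a 1.84-fold lower level (95% interval of the log2 difference -1.12 to -0.64). The adjusted p was 0.00151 by limma with Benjamini-Hochberg adjustment over all genes. The log2 difference was -0.83 ± 0.16 at 9 h (adjusted p = 0.00533, limma) and -0.93 ± 0.16 at 26 h (adjusted p = 0.00452, limma). The 2 effects differed by -0.11 ± 0.22 log2 (95% interval -0.59 to 0.38). Crem was called lower at both times, as were 0.64% of all genes. Without replicate 1 the averaged log2 difference was -0.86 (adjusted p = 0.0246, limma), and it was called at 9 h and at 26 h too. Without replicate 3 it was -0.93 (adjusted p = 0.0302, limma), and without replicate 2 it was -0.85 but missed the threshold (adjusted p = 0.141, limma). At 26 h the call was lost without replicate 2 or 3 (adjusted p = 0.0561 without replicate 3 and 0.198 without replicate 2, limma), and at 9 h without replicate 2 (adjusted p = 0.136, limma). Without replicate 2, calls over all genes numbered 36 on average (945 with all arrays), 0 at 9 h (4479) and 20 at 26 h (3472). Without replicate 3, 477 were called at 26 h. In the averaged comparison 2 of 10 neuron markers were called higher and 0 lower in blocked cultures, and 0 of 8 astrocyte and 0 of 8 microglia markers were called. Of the oligodendrocyte markers 1 of 9 was called lower, and of the vascular and fibroblast markers 1 of 8. Among the astrocyte markers, Aldoc was saturated on 6 arrays at each time. Slc1a3 was saturated on 3 arrays at 9 h and 2 at 26 h, and Aqp4 on 1 and 2. The part of cell composition in the Crem difference was not tested.

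Crem was also lower at 26 h than at 9 h, in blocked and in control cultures alike. The log2 difference of 26 h from 9 h was -1.44 ± 0.16 in blocked cultures and -1.34 ± 0.16 in control cultures (SE). Averaged over the 2, Crem fell by 1.39 ± 0.11 on the log2 scale, or 2.62-fold (adjusted p = 1.18e-04, limma). This contrast is balanced over scan days, and the call was kept without each of the replicates. Because both differences ran the same way, the lowest levels belonged to blocked 26 h cultures and the highest to control 9 h cultures. The mean levels were 0.61 ± 0.19 in blocked 9 h cultures and 0.10 ± 0.22 in control 26 h cultures (SD, n = 3 each). These neighbours in the order, both scanned on day 2, differed by 0.51 log2 (adjusted p = 0.112, or 0.0209 with the replicate block, limma). Without the block, 3.53% of all genes were called there. The other groups, both scanned on day 1, were -0.83 ± 0.13 in blocked 26 h cultures and 1.44 ± 0.22 in control 9 h cultures, a log2 difference of -2.27. Comparisons within a scan day mix blockade with time.

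**Figure D1:**
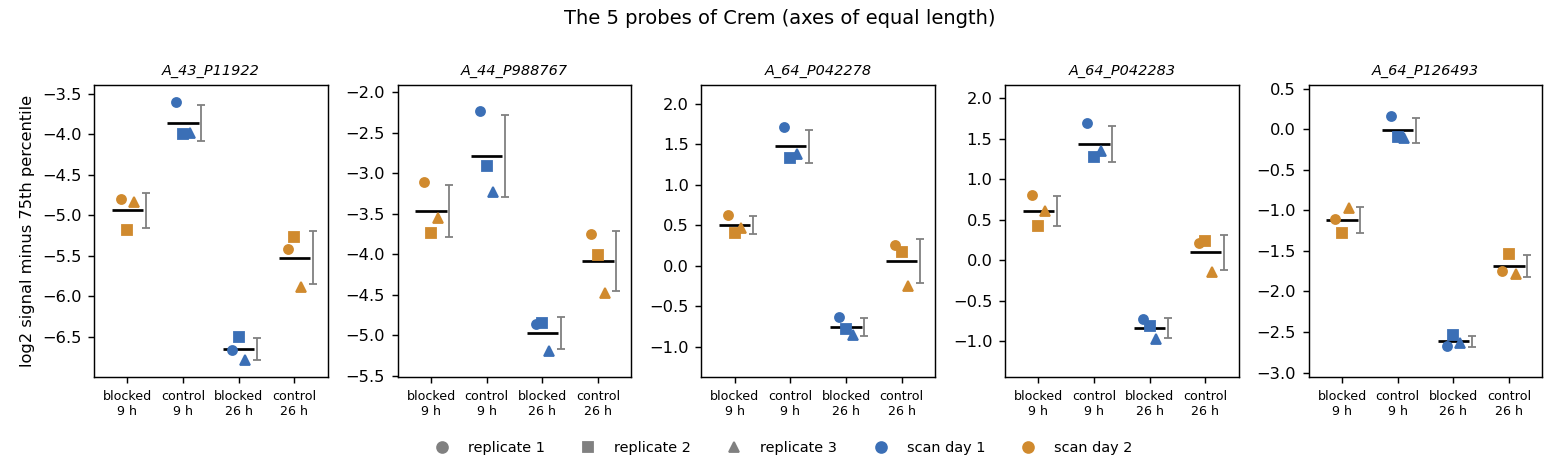
Log2 level of the 5 Crem probes on the 12 arrays, 1 panel per probe, with blocked cultures left of control cultures at 9 h and at 26 h. Symbols mark the replicate, colours the scan day, black lines the group mean and grey bars the SD. At 26 h the blocked arrays lie below the control arrays for all 5 probes, and at 9 h for 4 of them.

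Crem was the member with the most probes, and all 5 gave a lower level under blockade. Their averaged log2 differences ran from -1.10 to -0.78, and 4 of 5 probes were called lower, where 2.17% of the 24034 kept probes were. The same 4 of 5 count was reached at 9 h (9.03% of probes called lower) and at 26 h (9.3%). The probe that missed the threshold had an averaged log2 difference of -0.78 (adjusted p = 0.0504, limma), and its blocked and control arrays overlapped at 9 h. From 9 h to 26 h all 5 probes were called lower, with log2 differences from -1.68 to -1.33 (7.82% of probes called lower). The differences of -1.10 and -1.68 came from the same probe, whose group means ran from -6.65 to -3.86 log2. It matched a different RefSeq transcript of Crem than the remaining probes did. Probes share the RNA of the same 12 arrays and are not replicates. The probe names do not say which of them reads ICER.

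RefSeq lists 3 starts for rat Crem in its table for build GRCr8, all on the plus strand of chromosome 17. The later 2 lie 50731 and 51424 bases downstream of the first. The 250 bases before each start are shown because the CRE is the element through which CREB acts on Crem itself. Capitals mark the CRE, spelled TGACGTCA, and its half-sites outside a CRE, spelled TGACG or CGTCA, searched on both strands.
Crem start 1, chr17:58933816-58934065 (+): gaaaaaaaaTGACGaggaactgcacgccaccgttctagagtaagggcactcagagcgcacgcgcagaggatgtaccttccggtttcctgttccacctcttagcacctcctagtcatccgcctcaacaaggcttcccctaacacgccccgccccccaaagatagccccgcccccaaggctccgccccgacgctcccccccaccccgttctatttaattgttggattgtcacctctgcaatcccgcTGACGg
Crem start 2, chr17:58984547-58984796 (+): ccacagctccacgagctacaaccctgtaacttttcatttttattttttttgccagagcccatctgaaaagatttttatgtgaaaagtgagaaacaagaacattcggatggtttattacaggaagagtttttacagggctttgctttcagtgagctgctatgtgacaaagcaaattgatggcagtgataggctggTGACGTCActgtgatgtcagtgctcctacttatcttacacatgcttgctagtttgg
Crem start 3, chr17:58985240-58985489 (+): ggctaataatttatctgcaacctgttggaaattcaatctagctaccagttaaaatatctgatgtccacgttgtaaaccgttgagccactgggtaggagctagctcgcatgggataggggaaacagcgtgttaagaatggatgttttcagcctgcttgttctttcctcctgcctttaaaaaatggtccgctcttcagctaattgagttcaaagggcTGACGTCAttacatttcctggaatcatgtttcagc
Start 1 carried 2 half-sites and no CRE in this window. Counting from 1 at the start, with negative positions before it, start 2 had a CRE at -56 to -49. Start 3 had a CRE at -35 to -28 and another at 40 to 47, beyond the stretch shown. Windows of 300 bases, from 250 before to 50 after a start, were searched for 33469 RefSeq starts, and 1.83% of them held a CRE. Of 11 such windows for 8 of the members, 2 held one, and both were of Crem. Atf1 and Mef2c had no window here. Half-sites outside a CRE were found in windows of Creb1, Crtc2 and Crem, against 20.0% of all windows. A match of letters is a description of the window and does not show binding.

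**Figure D2:**
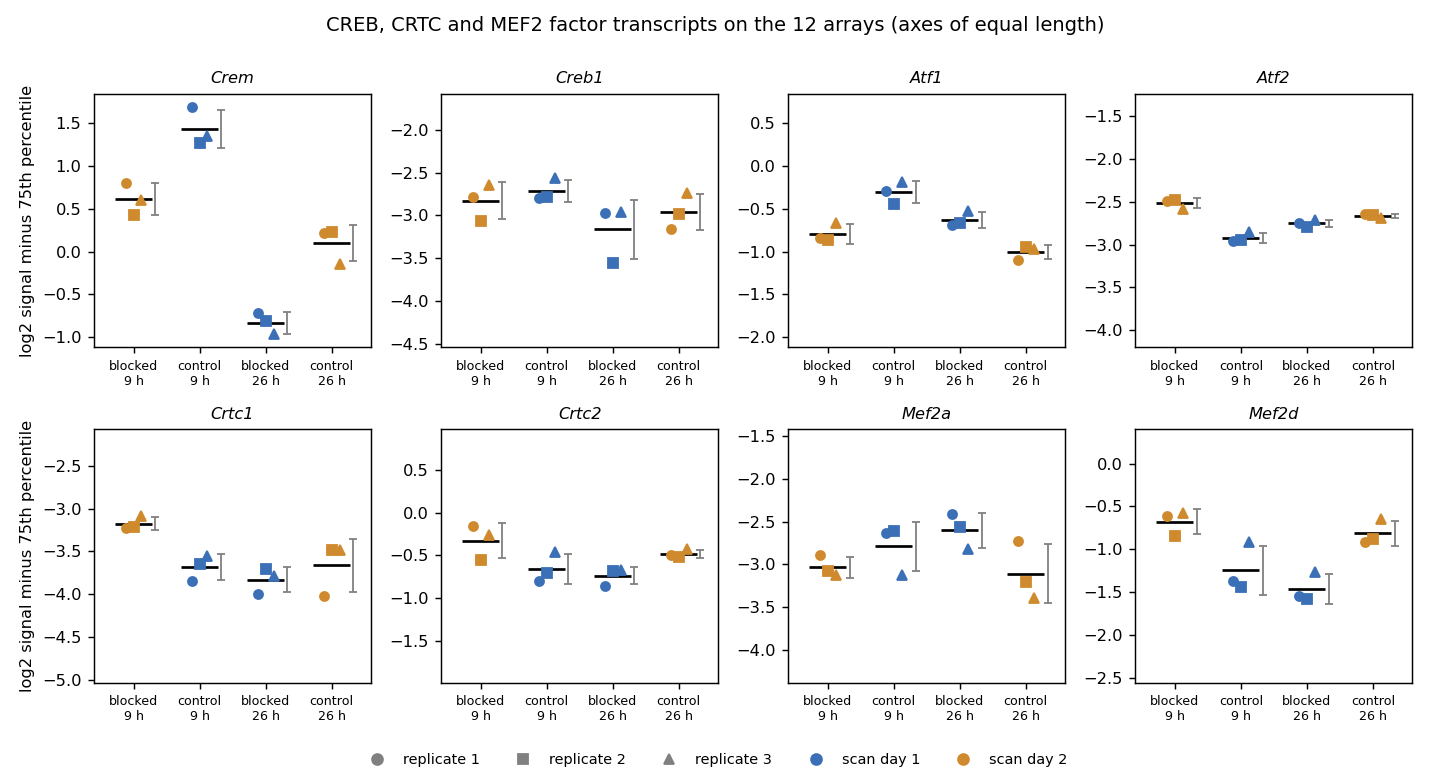
Log2 level of the 8 measured members on the 12 arrays, 1 panel per gene, with blocked cultures left of control cultures at 9 h and at 26 h. Symbols mark the replicate, colours the scan day, black lines the group mean and grey bars the SD. Crem is lower in blocked cultures at both times, whereas Atf1, Atf2 and Mef2d have their blocked arrays on opposite sides of the control arrays at the 2 times.

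No other member was called in the averaged comparison: of 8 measured members, 0 were higher and 1 was lower, against 4.45% of all genes called (2.23% higher and 2.22% lower). The median averaged log2 difference of the members was -0.0020, beside -0.02 over all genes. With the replicate number as a block, 1 of 8 members was again called, while the share of all genes called was 13.2%. All 8 were well above background on all 12 arrays, and none was saturated. The intervals bound the averaged difference that could have been missed, and not a difference at 1 time. The widest, for Mef2a, ran from -0.18 to 0.44 log2, and the narrowest, for Atf2, from 0.04 to 0.28 log2.

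**Figure D3:**
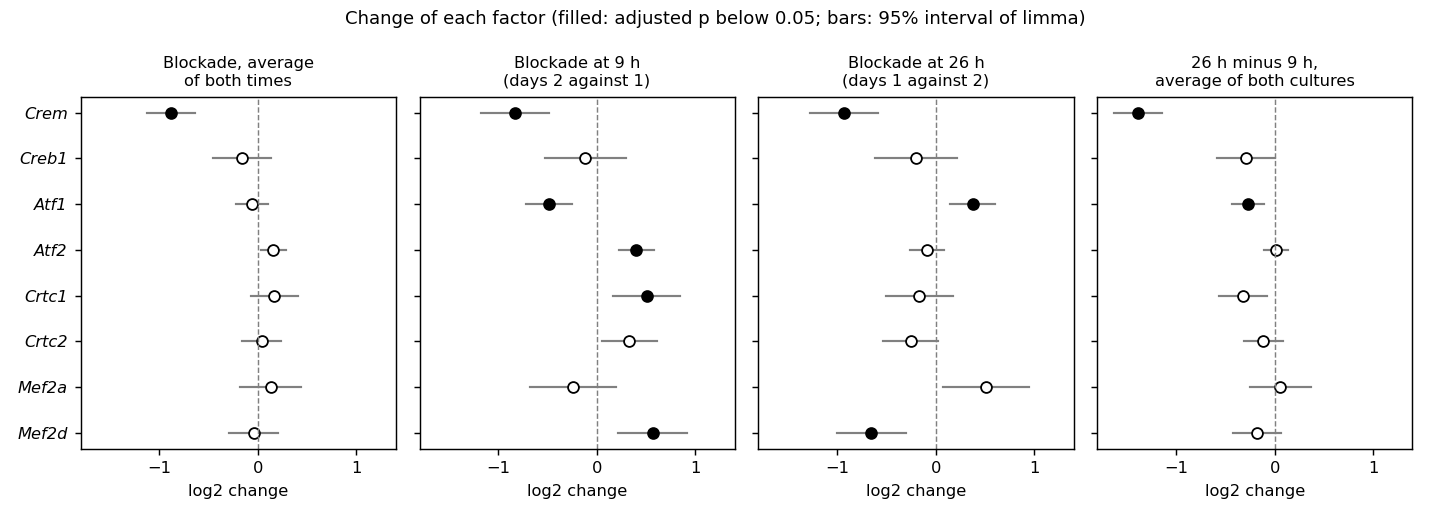
Log2 differences of the 8 measured members between blocked and control cultures, averaged over both times, at 9 h and at 26 h, and between 26 h and 9 h. Bars are 95% intervals, and filled symbols passed an adjusted p of 0.05 in limma. The averaged difference of Crem, -0.88 log2, is the one filled symbol among the averaged blockade effects.

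Creb1 encodes CREB itself, the founding member of the family. Its log2 level was -2.78, -3.07 and -2.64 in blocked 9 h cultures and -2.79, -2.79 and -2.56 in control 9 h cultures. At the later time it was -2.97, -3.56 and -2.96 in blocked cultures and -3.16, -2.99 and -2.74 in control cultures. The groups overlapped at both times. The averaged log2 difference was -0.16 ± 0.13 (95% interval -0.45 to 0.13, adjusted p = 0.659, limma).

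Atf1 encodes a close relative of CREB that binds the same element. Its main probe read -0.84, -0.87 and -0.66 log2 in blocked 9 h cultures and -0.30, -0.44 and -0.18 in control 9 h cultures. At 26 h the same probe read -0.69, -0.67 and -0.52 log2 in blocked cultures and -1.09, -0.95 and -0.97 in control cultures. Blocked arrays were below control arrays at 9 h and above them at 26 h, without overlap. The log2 differences were -0.49 ± 0.10 at 9 h (adjusted p = 0.00941, limma) and 0.38 ± 0.10 at 26 h (adjusted p = 0.0348, limma). They averaged to -0.05 ± 0.07 (95% interval -0.22 to 0.11). A second, dimmer Atf1 probe gave -0.13 log2 at 9 h and -0.16 log2 at 26 h, neither called, so the probes disagreed on the sign at 26 h.

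Atf2 encodes a CRE-binding factor that is a target of stress-activated kinases and partners JUN. Its log2 level was -2.49, -2.48 and -2.59 in blocked 9 h cultures and -2.96, -2.95 and -2.85 in control 9 h cultures, without overlap. At 26 h it was -2.74, -2.79 and -2.72 in blocked cultures and -2.65, -2.66 and -2.69 in control cultures, with blocked arrays now the lower ones and no overlap. The difference at 9 h was 0.40 ± 0.08 log2 (adjusted p = 0.00610, limma), and a second probe gave 0.28 log2 there (adjusted p = 0.106, limma). At 26 h the difference was -0.09 ± 0.08 log2 with no call. The second probe gave 0.0021 log2 at 26 h (adjusted p = 0.993, limma), and its blocked and control arrays overlapped. For the main probe the averaged log2 difference was 0.16 ± 0.06 (adjusted p = 0.164, limma).

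Crtc1 is the CREB coactivator best known from neurons, where it moves between synapse and nucleus. Its log2 level was -3.23, -3.21 and -3.09 in blocked 9 h cultures and -3.84, -3.65 and -3.55 in control 9 h cultures. At 26 h the levels were -3.99, -3.71 and -3.79 in blocked cultures and -4.02, -3.49 and -3.48 in control cultures. The groups parted at 9 h and overlapped at 26 h. The log2 difference was 0.51 ± 0.15 at 9 h (adjusted p = 0.0408, limma) and -0.17 ± 0.15 at 26 h (no call). Averaged, it was 0.17 ± 0.11 log2 (95% interval -0.07 to 0.41).

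Crtc2, the coactivator known from hormonal control of glucose production in liver, had log2 levels of -0.16, -0.55 and -0.26 in blocked 9 h cultures and -0.80, -0.71 and -0.46 in control 9 h cultures. At 26 h they were -0.85, -0.68 and -0.67 in blocked cultures and -0.49, -0.52 and -0.43 in control cultures. The groups overlapped at 9 h, and at 26 h the blocked arrays were the lower ones. The log2 difference was 0.33 ± 0.13 at 9 h (adjusted p = 0.0912, or 0.0484 with the replicate block, limma). At 26 h it was -0.26 ± 0.13 (adjusted p = 0.195, limma), and the average was 0.04 ± 0.09 log2.

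Mef2a encodes a widely expressed MEF2 factor. Its log2 level was -2.89, -3.08 and -3.13 in blocked 9 h cultures and -2.64, -2.61 and -3.12 in control 9 h cultures. After 26 h it was -2.41, -2.57 and -2.82 in blocked cultures and -2.73, -3.21 and -3.39 in control cultures. The groups overlapped at both times, and replicate 3 lay 0.35 log2 below the mean of the other replicates. The log2 difference at 26 h was 0.51 ± 0.20 (adjusted p = 0.103, or 0.0106 with the replicate block, limma). At 9 h it was -0.24 ± 0.20, and the average was 0.13 ± 0.14 log2.

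Mef2d, a MEF2 factor abundant in the adult brain, had log2 levels of -0.62, -0.84 and -0.57 in blocked 9 h cultures and -1.37, -1.45 and -0.92 in control 9 h cultures. At 26 h they were -1.55, -1.59 and -1.27 in blocked cultures and -0.92, -0.88 and -0.65 in control cultures. Blocked arrays were above control arrays at 9 h and below them at 26 h, without overlap. The log2 difference was 0.57 ± 0.16 at 9 h (adjusted p = 0.0288, limma) and -0.65 ± 0.16 at 26 h (adjusted p = 0.0210, limma). The average was -0.04 ± 0.11 log2 (95% interval -0.29 to 0.21).

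At 9 h, 3 members were called higher (Atf2, Crtc1 and Mef2d) and 2 lower (Crem and Atf1), where 21.1% of all genes were called (11.4% higher and 9.63% lower). At 26 h, 1 was called higher (Atf1) and 2 lower (Crem and Mef2d), where 16.3% were called (6.88% higher and 9.46% lower). With the replicate block the counts were 6 of 8 at 9 h (35.9% of all genes) and 4 of 8 at 26 h (31.7%). Blocked and control arrays did not overlap in 34.7% of genes at 9 h and in 38.1% at 26 h. Atf1 and Mef2d were called in opposite directions at the 2 times, and 7.35% of all genes were.

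The change of the blockade effect from 9 h to 26 h was called for the main probes of 5 of 8 members, against 28.6% of all genes. It coincides with the scan day, since the contrast adds the day 1 groups and subtracts the day 2 groups. The mean of day 2 arrays minus that of day 1 arrays was 0.61 log2 for Mef2d, 0.34 for Crtc1, 0.29 for Crtc2, 0.24 for Atf2, -0.38 for Mef2a and -0.43 for Atf1. For Atf2 and Mef2d each day 2 array lay above each day 1 array. The neuron marker list was also higher in blocked cultures at 9 h (5 of 10 called higher) and not at 26 h (0 higher, 1 lower). For these members a change of the blockade effect with time and the scan day cannot be told apart, and the part of the neuron markers was not tested. For Crem the day difference was 0.05 log2.

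Besides Crem, 1 member changed between the times in the balanced contrast. The main probe of Atf1 was lower at 26 h, with a log2 difference of -0.27 ± 0.07 (adjusted p = 0.0394, limma), and the second Atf1 probe gave -0.15 log2 with no call. The average covered opposite signs: the log2 difference was 0.16 in blocked cultures (not called) and -0.70 in control cultures (adjusted p = 0.00187, limma). Unlike the average, both of these set arrays of different scan days against each other. Time and scan day cannot be told apart in them. The averaged call held in 9 of 26 alternatives, and in 2 of the 15 that left out replicates. In all, 0 members were higher and 2 lower at 26 h, with 12.7% of all genes called (4.93% higher and 7.78% lower). The log2 difference of 26 h from 9 h was -0.29 for Creb1 (adjusted p = 0.192, or 0.0497 with the replicate block, limma). For Crtc1 it was -0.32 (adjusted p = 0.0838, or 0.0126 with the replicate block, limma).

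Among 12345 named genes, the 3 whose log2 levels over the 12 arrays most resembled those of Crem were Atf3 (Pearson r = 0.981), Bud23 (0.981) and Coq10b (0.973). Atf3 is a stress-induced relative of the CREB family, Bud23 a methyltransferase of ribosomal RNA and Coq10b a protein of the coenzyme Q system. After removal of the group means the r values were 0.779, 0.737 and 0.839. For Crtc1 they were Prps1l3 (0.954), Ccdc51 (0.952) and Or2b11 (0.936). The points share arrays, slides and scan days, and the correlations are a description.

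Of 14 other ATF, CREB and MEF2 genes, 12 were measured, and 1 rose and 1 fell in the averaged comparison (2.23% of all genes called higher and 2.22% lower). Atf3 fell by 0.71 log2 (SE 0.13, adjusted p = 0.0112, limma). Crebl2, which encodes a small CREB-like protein, rose by 0.51 log2 (SE 0.13, adjusted p = 0.0485, limma). The median log2 difference of the list was -0.04.

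Of 25 kinases and phosphatases that act on CREB, CRTC or MEF2, 21 were measured, with 2 higher and 1 lower in blocked cultures (2.23% and 2.22% of all genes) and a median of 0.05 log2. Sik1, the salt-inducible kinase that holds CRTC in the cytoplasm and is itself a CREB target, fell by 1.30 log2 (SE 0.13, adjusted p = 4.16e-04, limma). Camkk1, an upstream kinase of CaMKIV, rose by 0.71 log2 (SE 0.11, adjusted p = 0.00467, limma). Ppp3ca, the catalytic alpha subunit of calcineurin, rose by 0.39 log2 (SE 0.06, adjusted p = 0.00628, limma). At 9 h, 8 of the 21 were higher and 1 lower, where 11.4% of all genes were higher and 9.63% lower. At 26 h 1 was higher and 3 lower, where 6.88% of all genes were higher and 9.46% lower, with the scan day crossing as above. Of 14 coactivators and corepressors 8 were measured, and 1 fell: Hdac5, a class IIa histone deacetylase that binds MEF2, by 0.62 log2 (SE 0.09, adjusted p = 0.00318, limma).

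**Figure D4:**
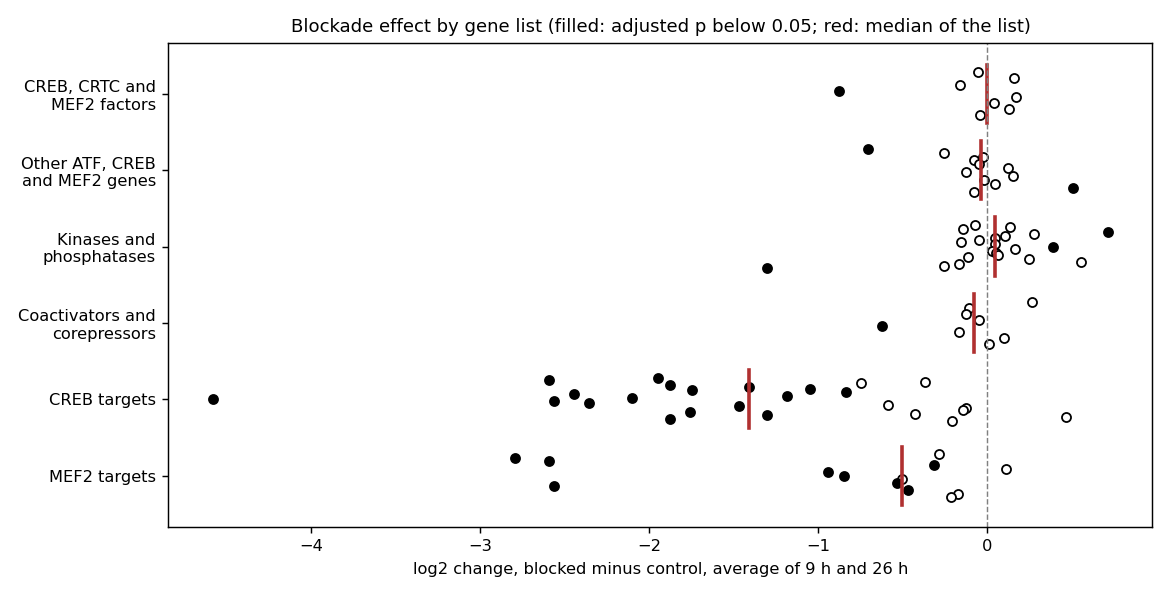
Averaged log2 difference between blocked and control cultures for each measured gene of the members and of 5 pathway lists, 1 point per gene, with the list median in red. The CREB and CRTC targets have a median of -1.41 and the MEF2 targets of -0.50, while the other medians lie between -0.08 and 0.05. The lowest point, Npas4, includes a 26 h level that was not well above background in blocked cultures.

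Many transcripts that CREB and CRTC are known to drive were lower in blocked cultures. Of 26 CREB and CRTC targets 25 were measured, and 17 fell while 0 rose in the averaged comparison (2.22% of all genes called lower), with a median log2 difference of -1.41 beside -0.02 over all genes. At 9 h 15 fell (9.63% of all genes) and at 26 h 21 fell (9.46% of all genes), with 0 higher at either time. The averaged count was 16 without replicate 3 and 7 without replicate 2. The list was chosen with earlier results of these arrays known, so its direction is not independent evidence. Its 6 called genes of largest averaged change were Npas4, Bdnf, Nr4a1, Inhba, Nr4a2 and Nfil3. Npas4, a neuronal activity-dependent transcription factor, fell by 2.66 log2 at 9 h. At 26 h it was well above background on 0 of 3 blocked arrays against 3 of 3 control arrays. The control mean was 61.4-fold above the lowest signal that any probe had well above background on the blocked arrays. The limit of the Npas4 probe itself was not determined, so the fold could be smaller. Averaged over both times, Bdnf, a neurotrophin, fell by 2.59 log2. The orphan nuclear receptors Nr4a1 and Nr4a2 had log2 differences of -2.56 and -2.35. Inhba, which encodes the activin beta A subunit, fell by 2.45 log2, and Nfil3, a bZIP repressor of clock output, fell by 2.10 log2.

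Of the 13 MEF2 targets, all measured, 8 fell and 0 rose in the averaged comparison (2.22% of all genes fell), with a median of -0.50 log2. The 6 of largest change were Arc (-2.80 log2), Bdnf, Nr4a1, Kcna4 (-0.94), Klf2 (-0.85) and Lgi1 (-0.53). Arc encodes a protein that removes AMPA receptors from the synapse, Kcna4 a potassium channel, Klf2 a Kruppel-like factor and Lgi1 a secreted synaptic protein. Bdnf and Nr4a1 also stand on the CREB list. At each time 6 of the 13 fell and 0 rose, where 9.63% of all genes fell at 9 h and 9.46% at 26 h. The averaged count was 4 without replicate 1, 1 without replicate 2 and 4 without replicate 3.

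Among 22 of the CREB and CRTC targets with RefSeq windows, 7 held a CRE within the 300 bases searched: Btg2, Cartpt, Dusp1, Ppargc1a, Scg2, Sst and Vgf. Over all genes with windows, 549 of 27457 held one. Dusp1, an inducible phosphatase of MAP kinases, was called lower by 1.41 log2 in the averaged comparison, and the other 6 were not called there. At 26 h, where scan days differ, Dusp1, Btg2, Ppargc1a, Scg2 and Vgf were called lower, against 9.46% of all genes. Cartpt and Sst were not. At 9 h none of the 7 was called, against 21.1% of all genes. Vgf was saturated on 6 arrays at 9 h and 3 at 26 h, and Scg2 on 3 and 1. Half-sites outside a CRE were found in 12 of the 22 genes, against 21.7% of all genes with windows. They were Bdnf, Dusp1, Egr1, Gadd45b, Junb, Nfil3, Nr4a1, Nr4a2, Ppargc1a, Rgs2, Sik1 and Tac1. All but Ppargc1a were called lower in the averaged comparison (2.22% of all genes), in a list chosen with earlier results known.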

How the data were processed

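Total RNA (200 ng per sample) was labelled with Cy3 and hybridised to 1-colour Agilent arrays, per the labels' protocols. The processed signal is an intensity written by Agilent Feature Extraction 10.5.1.1 per the file headers, after background subtraction with no scaling between arrays, and the header names build rn4. A matrix of log2 values was deposited as well. Regressed on log2 of the processed signal, its columns gave a slope of 1.000, with column medians from 7.57 to 7.75. The rule behind its constant per array is not given in the sources used here.

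Values used here were log2 processed signal minus the 75th percentile of each array, with control spots and 3751 outlier spot values left out. Probes well above background on all arrays of a group were kept (24034 of 30367). By transcript, 18004 probes matched a gene of the RefSeq table. A linear model with a mean per group was fitted to the 12 arrays with limma 3.58.1 (lmFit, eBayes, R 4.3.3). Tests were two-sided, adjusted with Benjamini-Hochberg over 21250 genes, at a threshold of 0.05. On data simulated for the averaged comparison with 200 genes changed by 1 log2, 74% of them were recovered, with 11 false calls. The median SE over all genes was 0.12 log2 in the averaged comparison, against 0.17 at 9 h and 0.17 at 26 h. Same-numbered blocked and control arrays of a time correlated at 0.177 to 0.657 after removal of group means, above the preset 0.1, so the replicate number was also fitted as a block. The labels call the cultures independent and do not explain the numbers. Between times, same-numbered arrays correlated at -0.041 to 0.253 in replicate 2. They correlated at 0.445 to 0.515 in replicate 1 and at 0.548 to 0.683 in replicate 3.

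Alternatives were median scaling, quantile normalization, normexp background correction (offset 50), the deposited matrix, no filter on dim probes, outlier spots kept and the mean of probes. Further ones were array weights, the replicate number or slide as a block, fits of the compared groups alone, and leaving out replicates. The members, lists, tests and rules for naming were chosen with earlier results of these data known. All members are named. Of each pathway list, up to 6 called genes of largest averaged change are named, and for Crem and Crtc1 the 3 genes of highest correlation. Dusp1 and the other genes with a CRE or a half-site were named after the search. Promoter sequences are RefSeq's for GRCr8. Precision is limited by the number of arrays.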

Additional observations from a re-analysis of the deposited data

Results flagged for a closer look

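For 5 members the blockade effect of the main probe at 26 h differed from that at 9 h by the test of the difference itself. The difference of the effects, 26 h minus 9 h, was 0.86 log2 for Atf1 (adjusted p = 0.00209, limma). It was -0.49 log2 for Atf2 (adjusted p = 0.00837, limma). The second probes of these genes were not called. They gave -0.03 log2 for Atf1 (adjusted p = 0.950, limma) and -0.28 log2 for Atf2 (adjusted p = 0.219, limma). For Crtc1 the difference of the effects was -0.67 log2 (adjusted p = 0.0413, limma) and for Crtc2 -0.59 log2 (adjusted p = 0.0326, limma). Mef2d had the largest of the 5, -1.22 log2 (adjusted p = 0.00302, limma). The calls of Crtc1 and Crtc2 each held in 12 of 25 alternatives, and in 3 of the 15 that left out replicates. Those of Atf1 and Mef2d each held in 23 of 25 and that of Atf2 in 21. In each case the contrast is the same as day 1 arrays against day 2 arrays, and time of blockade and scan day cannot be told apart. For Mef2a it was 0.75 log2, which was not called (adjusted p = 0.0660, limma). It passed under 4 of 25 alternatives, among them the replicate block (adjusted p = 0.00572, limma).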

How the results depend on the processing

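Crem remained lower in the averaged comparison under all 26 settings tried (-0.94 to -0.82 log2) and was called in 25 of them. With slide as a fixed block its adjusted p was 0.00344, and with the replicate block 3.76e-04 (limma). The members called in the averaged comparison numbered 2 with slide as a random block, which added Atf2. At 9 h 1 member was called when only the compared groups were fitted, a fit with fewer arrays. For the change between times 3 were called with slide as a random block. From 9 h to 26 h 1 was called under normexp, the deposited matrix, no filter on dim probes and the mean of probes, and 4 under the replicate block and under slide as a random block. Leaving out replicates gave 0 to 1 members in the averaged comparison, 0 to 6 at 9 h, 0 to 3 at 26 h, 0 to 6 for the change between times and 1 to 2 from 9 h to 26 h. No member was called at 9 h or on average without replicate 2 (5 and 1 with all arrays), and none at 26 h without replicate 2 or replicate 3. Over all genes, leaving out replicate 2 left 0 calls at 9 h, 36 on average and 20 at 26 h. Leaving out replicate 3 left 477 at 26 h.

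Over all genes the averaged comparison called 945, against 2798 with the replicate block, 2991 with slide as a random block, 2304 with slide as a fixed block and 1885 with array weights. At 9 h the count was 4479, against 7625 with the replicate block and 2045 with only the compared groups. At 26 h it was 3472, against 6737, 2308 and, with array weights, 7423. Alternatives for the target lists were chosen after the data were seen. The number of CREB and CRTC targets called lower on average, 17, was 17 to 20 under the other normalizations and blocks and 7 to 16 without a replicate number. For MEF2 targets, 8 were called, against 5 with the deposited matrix and 1 to 4 without a replicate number. Over all genes, leaving out replicates gave 36 to 982 on average, 0 to 4648 at 9 h and 20 to 4475 at 26 h.

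Some values that were not called turned sign. Mef2d averaged 0.0023 with the deposited matrix, the Crem change between times was 0.20 with normexp, that of Creb1 was 0.0090 with quantile normalization, and the time difference of Mef2a was -0.020 with array weights. Without single replicates the averaged difference ran from -0.013 to 0.095 for Crtc2 and from -0.094 to 0.039 for Mef2d, and the 9 h difference of Creb1 from -0.21 to 0.0026. The change between times of Creb1 ran from -0.22 to 0.11, and the time difference from -0.0036 to 0.030 for Atf2 and from -0.037 to 0.13 for Mef2a. The mean of both probes ended the calls of Atf1 at 9 h and at 26 h, where the probes differ. Normexp moved the median of all genes at 26 h to -0.14 log2. The cause of the other changes was not tested.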

Other observations

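Several CREB and CRTC targets also differed between 26 h and 9 h, averaged over blocked and control cultures. Of the 25 measured, 2 were higher and 5 lower at 26 h (4.93% and 7.78% of all genes). The lower ones were Tac1, which encodes substance P (-1.05 log2), Cartpt, which encodes the CART peptide (-0.87), Adcyap1, which encodes the neuropeptide PACAP (-0.72), Crh, corticotropin-releasing hormone (-0.74), and Gadd45b, a growth arrest and DNA damage gene (-0.76). Nr4a3 (0.80 log2) and Ppargc1a (0.46) were the higher ones. Atf3 fell by 1.05 log2 from 9 h to 26 h (adjusted p = 9.93e-04, limma). These genes were chosen after their values were seen.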
